A study of Homo sapiens with 30 samples.

Results

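The genes of MHC class II antigen presentation and their master regulator CIITA were followed across 2 subclones of a human breast cancer line and the organs they had grown in. The set holds 10 genes, taken by name: the class II chain genes HLA-DRA, HLA-DRB1, HLA-DPA1, HLA-DPB1, HLA-DQA1 and HLA-DQB1, the peptide editor genes HLA-DMA and HLA-DMB, the invariant chain gene CD74, and CIITA. The set was chosen with earlier results of these data known. All 10 had a row in both deposited count tables, which list 38526 genes for a first experiment and 36291 for a retransplantation, 33867 of them in both. The cells were MDA-MB-231, a triple-negative breast cancer line, marked with LeGO lentiviral barcodes. Each subclone is therefore 1 barcoded clone, and a difference between subclones 13 and 2 is a difference between these clones in these mice. In the first experiment, subclone 13 and subclone 2 were sorted from lung metastases, liver metastases and primary tumours of mice 1, 2 and 3, giving 6 groups of 3 mice. In the retransplantation, subclone 2 was sorted from lung and liver metastases of mice 4, 5 and 6. All hosts were NOD-SCID-IL2Rγc−/− (NSG) mice, which lack T, B and NK cells but keep myeloid cells. The labels name no treatment, and all cells compared carry the same barcoding.

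MHC class II molecules show peptides from the endosomal pathway to CD4+ T cells. An alpha and a beta chain of the DR, DP or DQ type assemble in the endoplasmic reticulum with the invariant chain CD74, which fills the peptide groove and steers the complex to endosomes. There, cathepsins degrade CD74, and HLA-DM, the dimer of HLA-DMA and HLA-DMB, exchanges the remaining fragment for antigenic peptide. CIITA is the coactivator that sets the whole set of genes: it does not bind DNA itself but docks on RFX, NF-Y and CREB proteins bound to the X and Y boxes of class II promoters. Professional antigen presenting cells express these genes constitutively, and many other cells, tumour cells among them, switch them on through interferon gamma and IRF1.

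In GRCh38 with GENCODE v29 annotation, the chain and editor genes lie in the class II region of chromosome 6 and all 10 are annotated as protein coding. HLA-DRA (ENSG00000204287) spans chr6:32439842-32445046 on the plus strand and HLA-DRB1 (ENSG00000196126) chr6:32578769-32589848 on the minus strand. HLA-DPA1 (chr6:33064569-33080775, minus) and HLA-DPB1 (chr6:33075926-33087201, plus) are neighbours whose exons share 96 bases. HLA-DQA1 spans chr6:32628179-32647062 and HLA-DQB1 chr6:32659467-32668383, and HLA-DMA and HLA-DMB lie at chr6:32948613-32969094 and chr6:32934629-32941070. CD74 (ENSG00000019582) is at chr5:150401637-150412929 and CIITA (ENSG00000179583) at chr16:10866222-10943021. CIITA exons overlap those of DEXI, on the other strand, over 2416 bases, 11.6% of its exon bases, and the library kit does not mark strand, so reads there cannot be assigned. HLA-DRB1 is close in sequence to HLA-DRB5 and related to the pseudogene HLA-DRB6, so the division of counts among these 3 genes is uncertain.

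Because the members moved together across the samples, their promoters are shown. RefSeq windows (GRCh38.p14, 250 bases before to 50 after the start) were at hand for 8 of the 10 genes, HLA-DRA and CIITA not among them. The letters ACNGATG, taken here for the core of the X box, were searched on both strands, as were the letters ATTGG, the inverted CCAAT core of the Y box. The X box core was found in the windows of 5 of the 8 genes, against 7.65% of all 35116 windows, and the Y box core in 7 of 8, against 34.6% of all windows. Both were present in 5 of 8 genes and in 2.78% of all windows. Those 5 genes are shown as the 150 bases before the start, all on the minus strand of the genome and written 5′ to 3′ along the gene, with matches to either core in capitals. The windows are chr6:32589849-32589998 for HLA-DRB1, chr6:32666658-32666807 for HLA-DQB1, chr6:32953098-32953247 for HLA-DMA, chr6:32941029-32941178 for HLA-DMB and chr5:150412911-150413060 for CD74.
HLA-DRB1: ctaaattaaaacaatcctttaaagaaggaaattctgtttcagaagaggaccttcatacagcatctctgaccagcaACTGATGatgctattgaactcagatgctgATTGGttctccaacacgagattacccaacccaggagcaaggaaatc
HLA-DQB1: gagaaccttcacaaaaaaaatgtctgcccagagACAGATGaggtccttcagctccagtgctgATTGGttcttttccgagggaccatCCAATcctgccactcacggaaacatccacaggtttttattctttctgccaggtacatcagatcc
HLA-DMA: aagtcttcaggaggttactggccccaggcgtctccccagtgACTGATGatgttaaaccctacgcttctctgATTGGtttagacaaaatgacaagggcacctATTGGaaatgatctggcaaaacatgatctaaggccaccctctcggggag
HLA-DMB: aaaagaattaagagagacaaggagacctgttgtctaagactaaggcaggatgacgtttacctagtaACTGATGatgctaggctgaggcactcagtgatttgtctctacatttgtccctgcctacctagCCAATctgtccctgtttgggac
CD74: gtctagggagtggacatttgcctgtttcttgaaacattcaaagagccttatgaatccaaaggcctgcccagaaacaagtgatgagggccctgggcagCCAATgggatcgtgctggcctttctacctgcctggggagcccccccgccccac
The X box core began 75 bases before the start in HLA-DRB1, 117 in HLA-DQB1, 109 in HLA-DMA and 84 in HLA-DMB. In HLA-DRB1, HLA-DQB1 and HLA-DMA a Y box core on the same strand followed, 46, 88 and 79 bases before the start. In HLA-DMB and CD74 the nearest Y box core lay on the strand opposite to the gene, 22 and 53 bases before the start. The X box core of CD74 lay 209 bases before the start, upstream of the stretch shown. It too was on the strand opposite to the gene, the same strand as the CD74 Y box core. A match describes the letters in these windows and is no evidence of binding.

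The first experiment comprised 24 libraries and 18 samples: the material of subclone 13 from mouse 1 had been sequenced as 3 libraries per organ, which were summed. Samples held 11807225 to 82218315 assigned counts in the first experiment and 23406778 to 32322333 in the retransplantation. Levels are given as CPM, counts per 1000000 of a library, after scaling by the trimmed mean of M values (TMM), and 3 counts correspond to 0.0374 to 0.246 CPM in a single sample of the first experiment. Samples from 1 mouse share a host. Mouse 2 was sequenced in run 2 and mouse 3 in run 3, while the subclone 13 libraries of mouse 1 came from runs 1, 2 and 3, so host and run cannot be told apart between mice 2 and 3. Of the 5 genes fixed as typical of MDA-MB-231 (VIM, CD44, EGFR, KRT18, AXL), the summed level was 3999 to 12210 CPM over all 24 samples, and EGFR was called lower in subclone 2 lung than in tumours with a mouse term (log2 fold change -0.74 ± 0.18, edgeR adjusted p = 0.0309). That of 5 luminal and epithelial genes that the line should lack was 7.78 to 20.3 CPM. The 9 of 14 professional antigen presenting cell markers with a row in the first table summed to 3.78 to 20.5 CPM, most of it CSF1R and CD14. PTPRC, the pan-leukocyte gene, did not exceed 0.89 CPM in any sample of the first experiment. The B cell gene MS4A1 had a row in the retransplantation table only, at 0.0372 CPM or less.

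**Figure D1:**
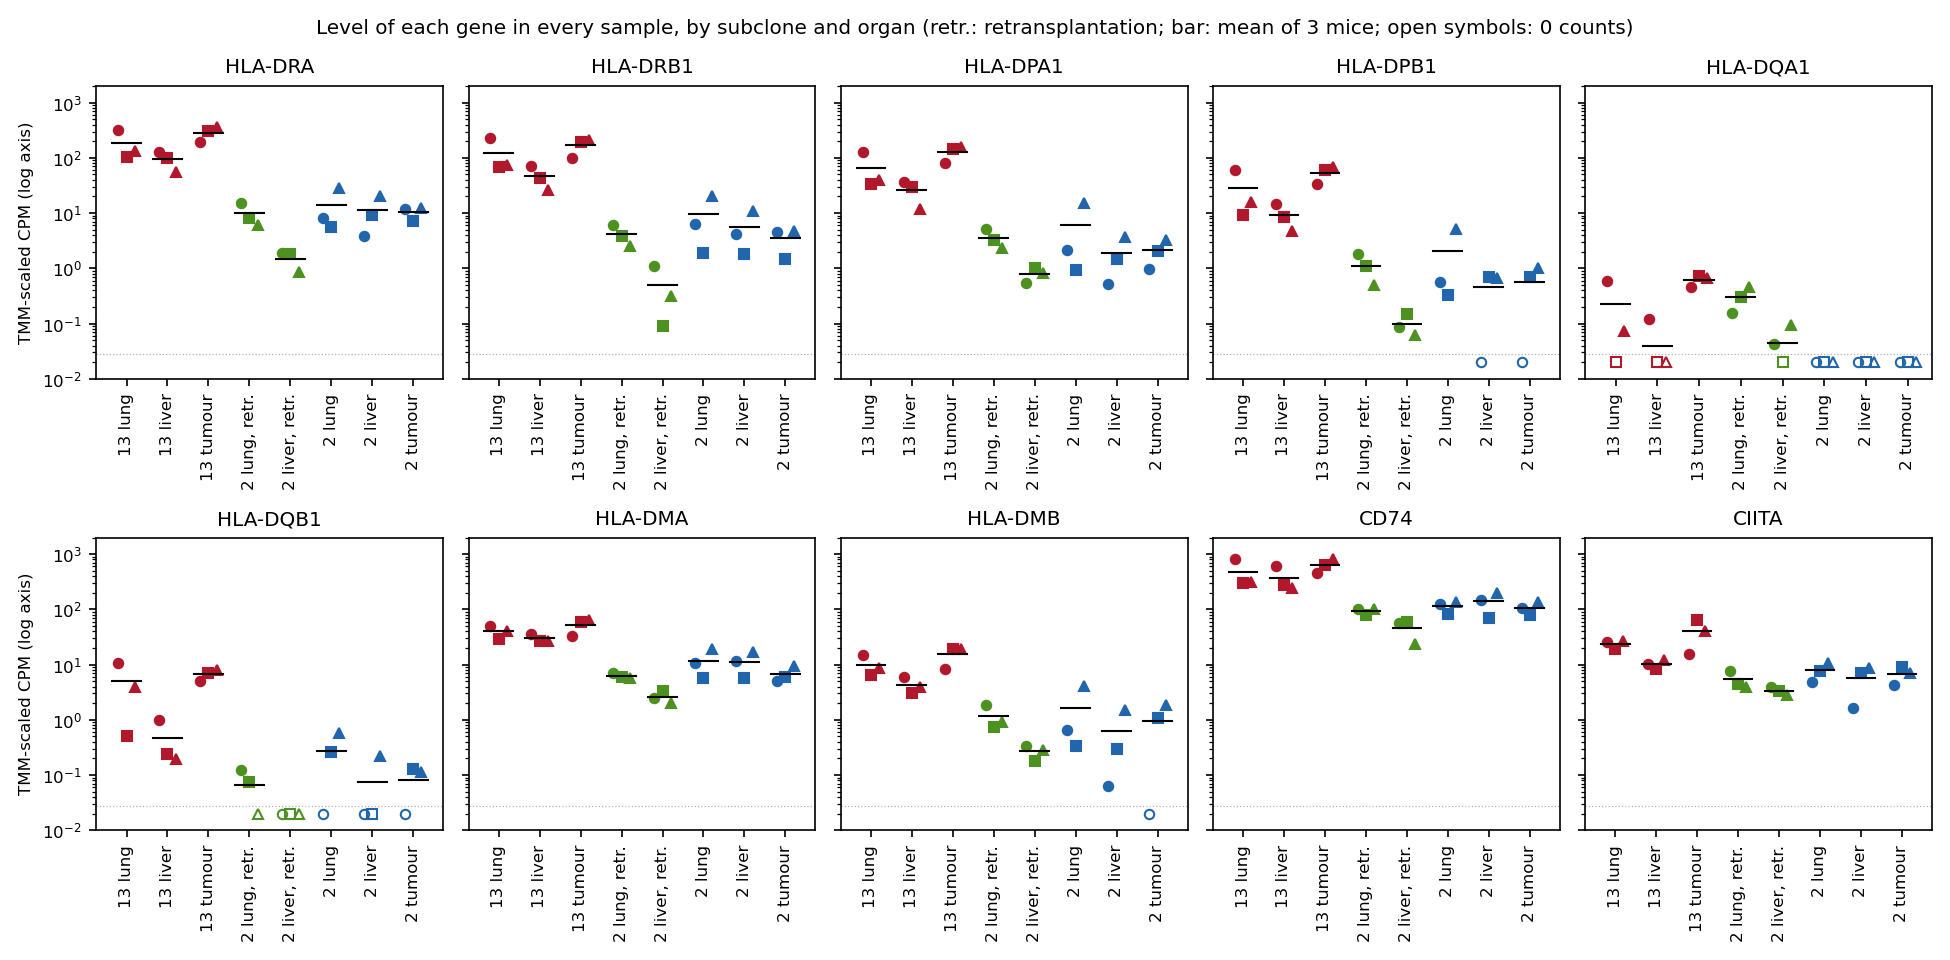
Level of each of the 10 genes in every sample, as TMM-scaled CPM on a log axis, with subclone 13 in red, retransplanted subclone 2 in green and subclone 2 of the first experiment in blue. Circles are mice 1 or 4, squares mice 2 or 5, triangles mice 3 or 6; bars are means and open symbols mark 0 counts. The 2 experiments were scaled separately. In primary tumours, the red points of all 10 genes lie above the blue ones.

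The largest differences in the set were between the subclones. In primary tumours, subclone 13 had higher levels of all 10 genes than subclone 2, in each of the 3 mice and without overlap between the groups. In the same comparison, 9.36% of all genes tested had every subclone 13 tumour above every subclone 2 tumour. Here and below, such shares cover only genes that passed the filter on low counts, while counts out of 10 include HLA-DQA1, which did not. Of the 9 genes that passed the filter on low counts, 6 were called higher and none lower (edgeR quasi-likelihood test, adjusted p under 0.05), against 0.109% of the 17418 genes tested that were called in either direction and 0.103% called higher. With mouse as a term in the model, all 9 were called higher, against 0.505% of genes called and 0.344% called higher. HLA-DQB1, at 0.573 CPM or less in every subclone 2 sample of the first experiment, passed the filter only through subclone 13. Its call is therefore no support for the difference. The median log2 fold change of the 9 genes was 4.75, and that of all genes tested was 0.02. As the set was chosen with earlier results known, these contrasts with all genes are a description and no independent support.

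The DR genes encode the most abundant class II molecule on most cells. HLA-DRA, the DR alpha chain, had 196, 308 and 356 CPM in subclone 13 tumours of mice 1, 2 and 3, against 12.1, 7.26 and 12.5 CPM in subclone 2 tumours. Its mean was 27.0-fold higher in subclone 13, with a log2 fold change of 4.75 ± 0.69 (SE, n = 3 mice a group; edgeR adjusted p = 0.0110). Even the lowest subclone 13 tumour stood above every subclone 2 sample of any organ. HLA-DRB1, the beta chain partner, had 99.7, 194 and 209 CPM in subclone 13 tumours, against 4.58, 1.47 and 4.79 CPM in subclone 2 tumours (log2 fold change 5.51 ± 0.88, edgeR adjusted p = 0.02).

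In the DP pair the ratio of means was 59.9 for the alpha and 93.6 for the beta chain, at lower levels than in the DR pair. HLA-DPA1, the alpha chain, had 80.9, 146 and 155 CPM in subclone 13 tumours, against 0.991, 2.10 and 3.27 CPM in subclone 2 tumours (log2 fold change 5.86 ± 0.97, edgeR adjusted p = 0.0208). HLA-DPB1, the beta chain, had 33.5, 59.4 and 67.5 CPM in subclone 13 tumours, against 0, 0.701 and 1.01 CPM in subclone 2 tumours (log2 fold change 6.42 ± 1.16, edgeR adjusted p = 0.0302). The subclone 2 tumour of mouse 1 held no HLA-DPB1 read. The standard errors of both DP fold changes overlap that of HLA-DRA.

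The DQ genes were the scarcest of the chains. HLA-DQB1, the beta chain, had 5.05, 7.17 and 8.0 CPM in subclone 13 tumours, against 0, 0.127 and 0.115 CPM in subclone 2 tumours. Its log2 fold change of 6.22 ± 1.44 rests on 7 counts in the 3 subclone 2 tumours and missed the threshold (edgeR adjusted p = 0.167), while the model with a mouse term called it higher (adjusted p = 0.0252). HLA-DQA1, the alpha chain, did not pass the filter and was not tested. It had 52 counts over the subclone 13 tumours, 43 over the lung samples and 7 over the liver samples, and 0 counts in all 9 subclone 2 samples of the first experiment. Of the lung counts 42 came from mouse 1, and all 7 liver counts came from 1 of its 3 liver libraries, so no fold is given for these organs. Set against a floor of 3 counts over the group, its mean CPM was at least 15.4-fold higher in subclone 13 than in subclone 2 in tumours.

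HLA-DMA and CD74 had ratios of means of 7.68 and 5.92, against 27.0 or more for the tested chain genes, while that of HLA-DMB was 16.1 with a wide error. HLA-DMA had 32.7, 59.9 and 64.7 CPM in subclone 13 tumours, against 5.02, 5.92 and 9.54 CPM in subclone 2 tumours (log2 fold change 2.93 ± 0.45, edgeR adjusted p = 0.0152). HLA-DMB had 8.20, 19.0 and 19.5 CPM in subclone 13 tumours, against 0, 1.08 and 1.82 CPM in subclone 2 tumours. Its log2 fold change was 3.94 ± 1.07 (edgeR adjusted p = 0.371, and 0.0270 with a mouse term). CD74 was the most abundant gene of the set in both subclones, with 457, 645 and 802 CPM in subclone 13 tumours, against 108, 79.1 and 135 CPM in subclone 2 tumours. Its log2 fold change was 2.57 ± 0.47 (edgeR adjusted p = 0.0317). In subclone 2 tumours CD74 was thus well detected, while the DP and DQ genes were at 3.27 CPM or less.

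CIITA, the coactivator, had 15.5, 63.7 and 40.5 CPM in subclone 13 tumours, against 4.21, 8.98 and 6.98 CPM in subclone 2 tumours. The groups did not overlap, the ratio of means was 5.94, and the log2 fold change was 2.57 ± 0.54. This missed the threshold without a mouse term (edgeR adjusted p = 0.0907) and passed it with one (log2 fold change 2.50 ± 0.41, adjusted p = 0.00555). In both subclones the tumour of mouse 1 had the lowest and that of mouse 2 the highest CIITA level.

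The calls in tumours rest on few animals: leaving out any single subclone 2 tumour, or mouse 2 or mouse 3 altogether, left 0 of the 9 genes called without a mouse term, and leaving out the subclone 13 tumour of mouse 2 or of mouse 3 left 1. The log2 fold change of HLA-DRA stayed between 4.46 and 5.11 over these and the other settings tried, and with a mouse term 4, 6 or 9 genes were called when a mouse was left out. Markers of antigen presenting cells summed to 13.0 to 15.6 CPM in subclone 13 tumours, against 3.78 to 10.4 CPM in subclone 2 tumours. CSF1R made up most of this, at 11.2, 11.7 and 13.3 CPM in subclone 13 tumours, against 3.41, 5.10 and 8.06 CPM in subclone 2 tumours. PTPRC, which leukocytes carry, was at 0.08 to 0.15 CPM in subclone 13 tumours, against 0.21 to 0.83 CPM in subclone 2 tumours, and so ran the other way. Of 8 markers of host hepatocytes and lung epithelium, 3 passed the filter and APOA1 was called higher, at 7.16, 14.3 and 23.8 CPM in subclone 13 tumours, against 0, 0.064 and 0.852 CPM in subclone 2 tumours (edgeR adjusted p = 0.0259). APOA1 was called higher in lung as well, at 10.5, 9.12 and 8.82 CPM in subclone 13, against 0.242, 0.131 and 0.082 CPM in subclone 2 (edgeR adjusted p = 0.015). SERPINA1, made by hepatocytes, had 133, 167 and 212 CPM in subclone 13 tumours, against 59.6, 62.7 and 66.0 CPM in subclone 2 tumours, and was called higher in tumours with a mouse term (adjusted p = 0.0291) and in liver without one (log2 fold change 1.99 ± 0.34, edgeR adjusted p = 0.0199). ALB, the defining hepatocyte gene, did not exceed 0.102 CPM in subclone 13 tumours, against 0.230 CPM in subclone 2 tumours. The source of these marker counts, human genes in mouse hosts, was not examined. The part of these markers in the class II difference was not tested. In bulk samples such as these, more cells with transcripts and more transcripts per cell cannot be told apart.

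**Figure D2:**
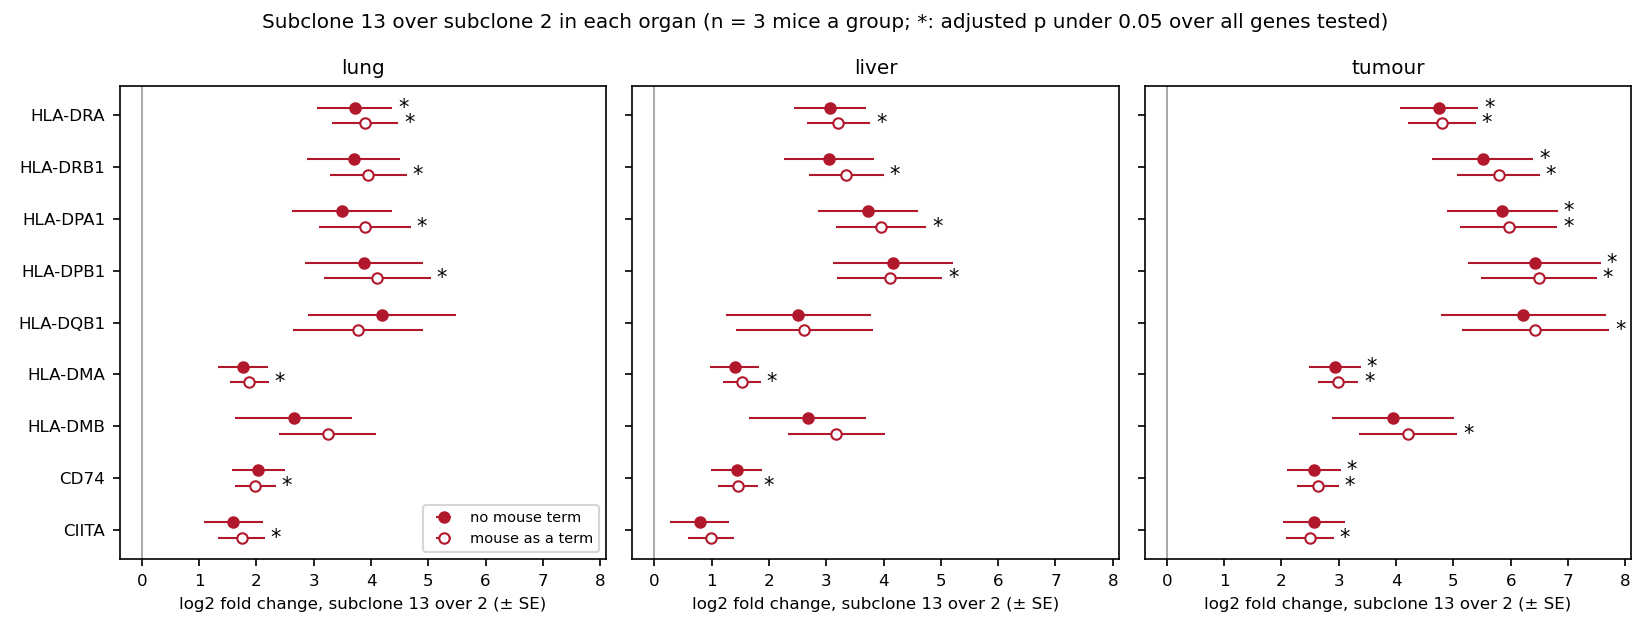
Log2 fold change of subclone 13 over subclone 2, with its standard error, for the 9 genes tested in lung, liver and tumour samples (n = 3 mice a group). Filled points are from the model without a mouse term, open points from the model with one, and asterisks mark an adjusted p under 0.05. All fold changes are above 0, and 6 filled and 9 open points carry an asterisk in tumours.

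The difference between subclones had the same direction in the metastases. In lung, the samples of subclone 13 were all above those of subclone 2 for 8 of 10 genes, against 6.60% of all genes tested, the exceptions being HLA-DQA1 and HLA-DQB1. HLA-DRA had 313, 103 and 136 CPM in subclone 13 lung metastases of mice 1, 2 and 3, against 8.14, 5.61 and 28.7 CPM in those of subclone 2. Mouse 1 was highest among the subclone 13 samples and mouse 3 highest among the subclone 2 samples. HLA-DRA was the 1 gene of 9 called in lung (log2 fold change 3.72 ± 0.66, edgeR adjusted p = 0.0191), against 0.184% of all genes called and 0.121% called higher. With a mouse term 7 were called higher, HLA-DQB1 and HLA-DMB being the 2 that missed, against 1.54% of all genes called and 0.758% called higher.

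CD74 in lung had 800, 296 and 312 CPM in subclone 13, against 124, 83.0 and 138 CPM in subclone 2 (log2 fold change 2.03 ± 0.46, edgeR adjusted p = 0.0817, and 0.00674 with a mouse term). CIITA had 25.3, 19.0 and 26.8 CPM in subclone 13 lung metastases, against 4.92, 7.76 and 10.8 CPM in those of subclone 2 (log2 fold change 1.60 ± 0.52, edgeR adjusted p = 0.365, and 0.0344 with a mouse term). The call of HLA-DRA in lung is lost when either the subclone 13 lung sample of mouse 1 or the subclone 2 lung sample of mouse 1 or 2 is left out, and 3 genes are called without the subclone 2 lung sample of mouse 3. The model with a mouse term gave 3, 0 and 6 calls in lung when mouse 1, 2 or 3 was left out.

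In liver, subclone 13 was above subclone 2 without overlap for 7 of 10 genes, against 5.52% of all genes tested. HLA-DRA had 128, 99.7 and 56.3 CPM in subclone 13 liver metastases, against 3.78, 9.41 and 20.4 CPM in those of subclone 2. The subclones stood closest in mouse 3, where subclone 13 was lowest and subclone 2 highest. No gene of the set was called in liver without a mouse term (HLA-DRA log2 fold change 3.06 ± 0.63, edgeR adjusted p = 0.0517), although the unadjusted p was under 0.05 for 7 of 9, against 7.23% of all genes. Over all genes edgeR called 0.247%. DESeq2 called 4 of the set, and 267 of all genes. With a mouse term 6 genes were called higher, against 1.5% of all genes called in either direction and 0.976% called higher: both DR genes, both DP genes, HLA-DMA and CD74.

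CIITA in liver was 10.3, 8.23 and 12.2 CPM in subclone 13, against 1.67, 7.18 and 8.62 CPM in subclone 2, and the groups overlapped. Its log2 fold change there was 0.79 ± 0.51 (edgeR adjusted p = 0.904, and 0.259 with a mouse term). CD74 in liver had 611, 278 and 241 CPM in subclone 13, against 146, 71.0 and 201 CPM in subclone 2 (log2 fold change 1.44 ± 0.45, adjusted p = 0.0418 with a mouse term). When mouse 1, 2 or 3 was left out, the model with a mouse term called 2, 0 or 4 genes in liver.

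Among the organs of subclone 13, liver metastases had the lowest class II levels. For 8 of the 10 genes every liver sample was below every tumour sample, against 7.97% of all genes tested, and the same 8 genes were lower in liver than in tumour in all 3 mice. CD74 and HLA-DMA were the exceptions, both higher in the liver of mouse 1 than in its tumour. The median log2 fold change of liver over tumour was -1.86 over the 9 genes tested and 0.02 over all genes. None of the 9 was called without a mouse term (edgeR), although the unadjusted p was under 0.05 for 6, against 5.98% of all genes. Over all genes edgeR called 0.385%. DESeq2 called 2 of the 9, and 245 of all genes.

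CIITA was the gene with the smallest p, at 10.3, 8.23 and 12.2 CPM in liver metastases, against 15.5, 63.7 and 40.5 CPM in tumours of mice 1, 2 and 3. Its log2 fold change was -1.96 ± 0.52 (edgeR adjusted p = 0.166), and with a mouse term it was called lower (-1.78 ± 0.40, adjusted p = 0.0246, against 1.83% of all genes called and 1.4% called lower). Without mouse 1 the model with a mouse term called 5 genes, and without mouse 2 or mouse 3 it called 0. HLA-DRA had 128, 99.7 and 56.3 CPM in liver, against 196, 308 and 356 CPM in tumours (log2 fold change -1.60 ± 0.60, edgeR adjusted p = 0.510). HLA-DPA1 had 36.9, 29.8 and 12.0 CPM in liver, against 80.9, 146 and 155 CPM in tumours (log2 fold change -2.27 ± 0.81, edgeR adjusted p = 0.455). HLA-DQB1 had 0.983, 0.242 and 0.197 CPM in liver, against 5.05, 7.17 and 8.0 CPM in tumours, and its log2 fold change of -3.73 ± 1.22 had the largest error (edgeR adjusted p = 0.355, and 0.0691 with a mouse term).

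Of the antigen presenting cell markers, CD14, a monocyte gene, ran the other way in subclone 13, with 6.27, 10.1 and 6.37 CPM in liver, against 1.14, 0.819 and 1.51 CPM in tumours, and was called higher with a mouse term (log2 fold change 2.90 ± 0.71, adjusted p = 0.0409). In lung CD14 had 10.1, 3.65 and 7.93 CPM and was called higher than in tumours with a mouse term (2.68 ± 0.70, adjusted p = 0.0448). The 9 of 14 markers with a row summed to 6.67 to 19.1 CPM in lung and 11 to 20.3 CPM in liver, against 13.0 to 15.6 CPM in tumours. Their part in the class II levels of these organs was not tested.

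Subclone 13 lung metastases were between these, and differed by mouse. In mouse 1 the lung sample was above the tumour for all 10 genes, and in mice 2 and 3 it was below the tumour for all of them. HLA-DPA1, for example, had 125, 33.3 and 39.4 CPM in lung, against 80.9, 146 and 155 CPM in tumours of mice 1, 2 and 3. The groups overlapped for all 10 genes, and log2 fold changes of lung over tumour ranged over the 9 tested genes between -0.94 and -0.40, with 0 called by edgeR, 0 with an unadjusted p under 0.05 and 0 called by DESeq2. Of all genes 0.419% were called, and 2.89% with a mouse term, while 7.76% had an unadjusted p under 0.05 without one. Lung was above liver in all 3 mice for 9 of 10 genes, the other being HLA-DQA1, against 21.5% of all genes tested. The groups did not overlap for 2 of them, HLA-DMB and CIITA, against 5.23% of all genes. The excess was smallest in mouse 2, where HLA-DRA had 103 CPM in lung, against 99.7 CPM in liver. None of the 9 genes was called between lung and liver by edgeR or DESeq2, and 2 had an unadjusted p under 0.05, against 4.55% of all genes. Of all genes 0% were called, and 0.276% with a mouse term.

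The 3 libraries made from subclone 13 of mouse 1 in each organ give a measure of the technical error of these values. The labels mark 6 of these 9 libraries as technical replicates. In CPM of each library's own total, HLA-DRA was 270 to 273 in lung, 111 to 114 in liver and 175 to 184 in tumour. CIITA was 17.2 to 23.6 in lung, 6.27 to 9.75 in liver and 13.5 to 14.9 in tumour. Scarcer genes spread more widely in liver, with HLA-DMB at 2.45 to 5.49 and HLA-DQB1 at 0 to 0.974. These ranges cover 1 mouse and hold no error between mice.

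**Figure D3:**
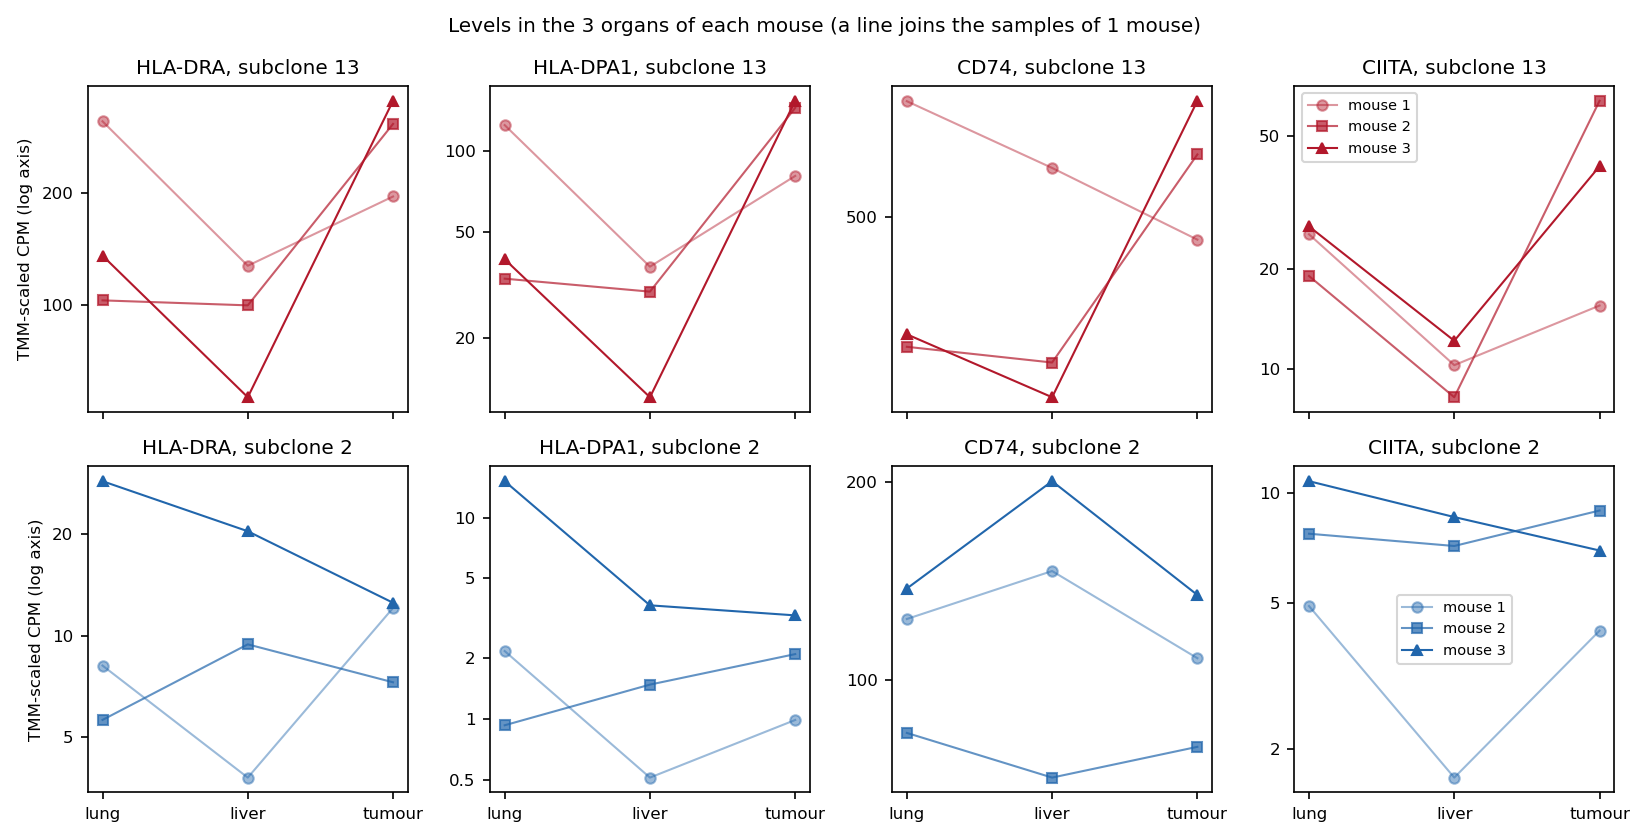
Levels of HLA-DRA, HLA-DPA1, CD74 and CIITA in lung metastasis, liver metastasis and primary tumour of each mouse, as TMM-scaled CPM on log axes whose ranges differ between panels, for subclone 13 (upper row) and subclone 2 (lower row). Lines join samples of 1 mouse. In subclone 13, HLA-DRA, HLA-DPA1 and CIITA have their low point in liver in all 3 mice, and in subclone 2 the lines cross.

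In subclone 2 of the first experiment the organs could not be distinguished. The groups overlapped for all 10 genes in each of the 3 pairs of organs. HLA-DRA had 8.14, 5.61 and 28.7 CPM in lung, 3.78, 9.41 and 20.4 CPM in liver, and 12.1, 7.26 and 12.5 CPM in tumours of mice 1, 2 and 3. Mouse 3 was the highest in each organ. HLA-DPA1 spanned 15.1 CPM in the lung of mouse 3 and 0.513 CPM in the liver of mouse 1. CD74 kept within 71.0 to 201 CPM over the 9 samples. No gene was called in lung against tumour, liver against tumour or lung against liver, by edgeR with or without a mouse term or by DESeq2, and none had an unadjusted p under 0.05 without a mouse term. Of all genes, 0.436%, 0.287% and 0.023% were called in these 3 comparisons, and 3.05%, 1.68% and 2.95% with a mouse term. An unadjusted p under 0.05 without a mouse term was found for 9.32%, 6.65% and 9.29% of all genes. The fold change of HLA-DRA was 0.40 ± 0.60 in lung over tumour and 0.09 ± 0.59 in liver over tumour on the log2 scale. Larger differences were not called either, such as HLA-DPA1 in lung over liver (log2 fold change 1.57 ± 0.83, edgeR adjusted p = 0.598). These tests therefore do not exclude differences of more than 1 standard error.

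Whether liver and tumour differed by another amount in subclone 13 than in subclone 2 was tested as an interaction. The difference was negative for all 9 genes, with values from -1.13 ± 0.62 for CD74 to -3.71 ± 1.84 for HLA-DQB1. None was called (edgeR adjusted p = 1 for each), and 3 had an unadjusted p under 0.05, against 1.71% of all genes, namely HLA-DRB1, HLA-DMA and CIITA. DESeq2 called none, and of all genes 0% were called, or 0.00574% with a mouse term. The corresponding interactions for lung against tumour and for lung against liver gave 0 calls and 0 unadjusted p under 0.05 among the 9 genes. Of all genes 0% were called in either, and 0.792% and 1.98% had an unadjusted p under 0.05. At 3 mice a group, the low level in liver is therefore not shown to be particular to subclone 13.

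Retransplantation gave a second set of lung and liver samples of subclone 2, and here the organs stood apart. For 9 of the 10 genes every lung sample was above every liver sample, against 9.98% of all genes tested. HLA-DQB1 was the other gene, with 6 counts in lung and 0 in liver. HLA-DQB1 and HLA-DQA1, the latter at 25 against 4 counts, did not pass the filter that the 9.98% rests on. The median log2 fold change of lung over liver was 2.14 over the 8 genes that passed the filter, and -0.03 over all 17549 genes tested. Without a mouse term edgeR called none of the 8, and 0% of all genes. The unadjusted p was under 0.05 for 7 of the 8, against 12.5% of all genes. DESeq2 called 6 of the 8, and 403 of all genes. With a mouse term HLA-DRA and HLA-DPB1 were called higher in lung, against 0.479% of all genes called and 0.393% called higher. HLA-DPB1, at 0.152 CPM or less in every liver sample, passed the filter only through the lung samples. Its call is therefore no support for the difference. HLA-DRB1 and HLA-DMB also needed the lung samples to pass, which bears on the median.

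HLA-DRA had 15, 8.30 and 6.18 CPM in lung metastases of mice 4, 5 and 6, against 1.87, 1.79 and 0.842 CPM in their liver metastases. The ratio of means was 6.55 and the log2 fold change 2.71 ± 0.45 (edgeR adjusted p = 0.129), or 2.69 ± 0.28 with a mouse term (adjusted p = 0.0167). HLA-DRB1 had 5.98, 3.87 and 2.58 CPM in lung, against 1.10, 0.091 and 0.312 CPM in liver (log2 fold change 3.09 ± 0.75, edgeR adjusted p = 0.198). Both DR genes were highest in the lung of mouse 4 and lowest in that of mouse 6.

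The DP genes had the same order of mice in lung. HLA-DPA1 had 5.07, 3.27 and 2.31 CPM in lung, against 0.552, 1.03 and 0.811 CPM in liver (log2 fold change 2.14 ± 0.41, edgeR adjusted p = 0.145). HLA-DPB1 had 1.78, 1.08 and 0.493 CPM in lung, against 0.085, 0.152 and 0.062 CPM in liver, which is 99 counts over the lung samples and 9 over the liver samples (log2 fold change 3.42 ± 0.63, edgeR adjusted p = 0.145, and 0.0488 with a mouse term). HLA-DQA1, absent from the counts of subclone 2 in the first experiment, had 25 counts over the lung samples and 4 over the liver samples.

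The editor, chaperone and coactivator genes had fold changes of various sizes, 4.40-fold between means for HLA-DMB, against 4.45-fold for the DP alpha chain, and smaller point estimates for HLA-DMA, CD74 and CIITA. HLA-DMA had 6.98, 6.07 and 5.80 CPM in lung, against 2.50, 3.31 and 2.03 CPM in liver (log2 fold change 1.26 ± 0.29, edgeR adjusted p = 0.181). HLA-DMB had 1.88, 0.744 and 0.910 CPM in lung, against 0.339, 0.182 and 0.281 CPM in liver (log2 fold change 2.147 ± 0.50, edgeR adjusted p = 0.186, and 0.0881 with a mouse term). CD74 had 101, 77.7 and 102 CPM in lung, against 55.8, 57.9 and 23.3 CPM in liver (log2 fold change 1.04 ± 0.32, edgeR adjusted p = 0.273). CIITA had 7.79, 4.54 and 3.94 CPM in lung, against 3.90, 3.37 and 2.78 CPM in liver, and its lung and liver ranges almost met (log2 fold change 0.70 ± 0.34, edgeR adjusted p = 0.436, and 0.280 with a mouse term).

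Counts of genes typical of other cells also differed between these lung and liver samples. The counted genes are human and the hosts were mice, and the source of these counts was not examined. PTPRC, the pan-leukocyte gene, had 1.41, 1.12 and 2.99 CPM in lung of mice 4, 5 and 6, against 0.30, 0.33 and 0.31 CPM in liver. SPI1, a myeloid and B cell transcription factor, had 0.88, 1.19 and 3.90 CPM in lung, against 0.42, 0.30 and 0.41 CPM in liver. SFTPC, a surfactant gene of alveolar cells, had 0.88, 3.01 and 3.49 CPM in lung, against 0, 0.03 and 0 CPM in liver, and was called higher in lung with a mouse term (adjusted p = 0.0167). It passed the filter on low counts only through the lung samples, so its call is no support for a difference. The whole list of antigen presenting cell markers, 11 of 14 with a row, summed to 10.5 to 18.1 CPM in lung, against 9.20 to 10.8 CPM in liver. MS4A1 had at most 0.0372 CPM in lung and was at 0 in liver. Among the lung samples PTPRC and SPI1 were highest in mouse 6. The class II genes were mixed there. Both DR and both DP genes, HLA-DQB1, HLA-DMA and CIITA were lowest in the lung of mouse 6. CD74 and HLA-DQA1 were highest in it, and HLA-DMB was lowest in mouse 5. The part of these markers in the difference between lung and liver was not tested.

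**Figure D4:**
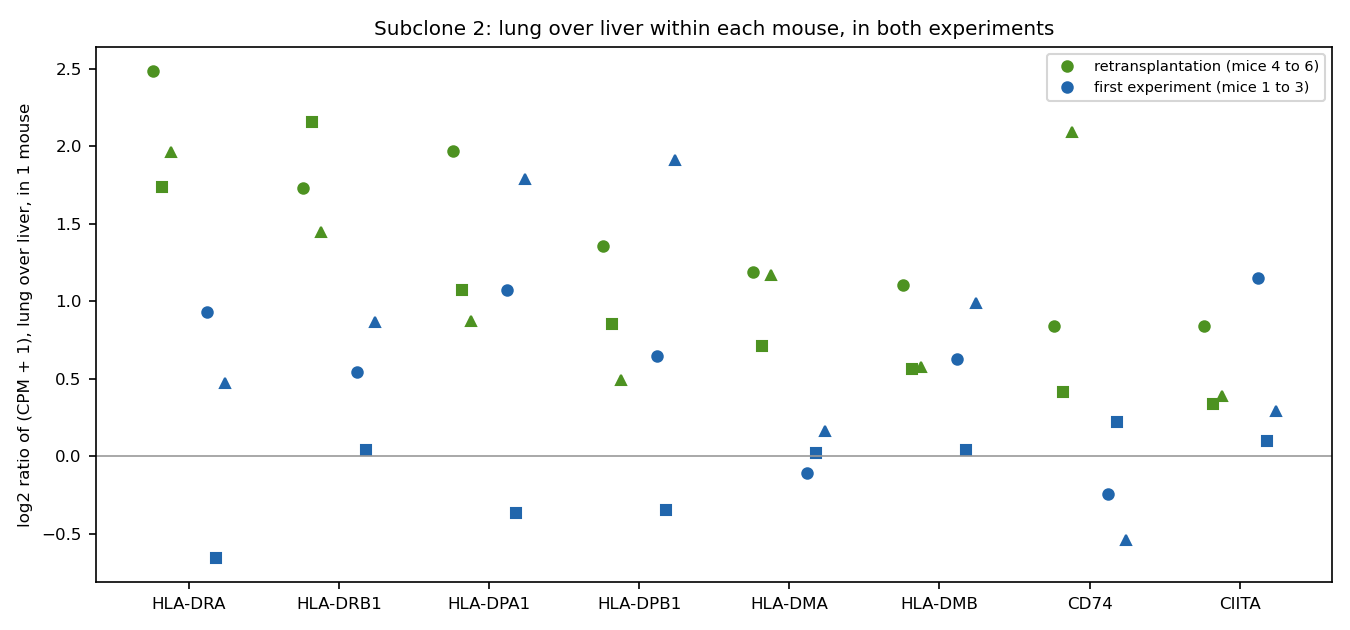
Log2 ratio of lung over liver of 1 mouse, from CPM with 1 CPM added, for subclone 2 in the retransplantation (green, mice 4 to 6) and in the first experiment (blue, mice 1 to 3). Circles are mice 4 and 1, squares mice 5 and 2, triangles mice 6 and 3, and the line at 0 marks equal levels. All green points lie above 0, and the blue points lie on both sides for 5 of the 8 genes.

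The first experiment had given no such separation in subclone 2, with a HLA-DRA log2 fold change of lung over liver of 0.31 ± 0.60 (edgeR adjusted p = 0.936) and a CD74 value of -0.28 ± 0.44. The difference between the experiments, tested as an interaction in 1 model over both, was 2.46 ± 0.84 for HLA-DRA (edgeR adjusted p = 0.620) and 1.34 ± 0.61 for CD74 (edgeR adjusted p = 0.757). None of the 10 genes was called with or without a mouse term or by DESeq2, while 0.00507% of 19721 genes were called, and 0.071% with a mouse term. An unadjusted p under 0.05 was found for 4 (HLA-DRA, HLA-DRB1, HLA-DMA and CD74), against 6.22% of all genes. The experiments were sequenced in separate runs, so experiment and run cannot be told apart in levels, and the contrast of lung with liver was taken within each.

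Per kilobase of transcript, levels can be set beside each other across genes. In subclone 13 tumours the order of the mean levels was CD74 (599 ± 163 CPM per kilobase, SD, n = 3), HLA-DRA (234 ± 66.9), HLA-DRB1 (136 ± 48.2), HLA-DPA1 (74.5 ± 23.6), HLA-DMA (52.1 ± 17.2), HLA-DPB1 (34.3 ± 11.4), HLA-DMB (11.2 ± 4.6), CIITA (10.6 ± 6.4), HLA-DQB1 (4.10 ± 0.93) and HLA-DQA1 (0.510 ± 0.118). CD74 and HLA-DRA did not overlap in range, nor did HLA-DPB1 and HLA-DMB, nor the DQ pair. The other neighbours in that order did overlap between mice. Within single tumours the same order held in all 3 mice, except that CIITA stood above HLA-DMB in mouse 2. In subclone 2 tumours CD74 (101 ± 26.2) was again first, followed by HLA-DRA (8.67 ± 2.38), HLA-DMA (6.78 ± 2.38), HLA-DRB1 (2.94 ± 1.52) and CIITA (1.79 ± 0.64), whose mean stood above that of HLA-DPA1 (1.25 ± 0.67) with overlapping ranges.

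The balance between genes thus differed with the subclone. CD74 over HLA-DRA, per kilobase, was 2.42 to 2.69 in subclone 13 tumours, against 10.3 to 12.6 in subclone 2 tumours. In lung this ratio was 2.65 to 3.33 in subclone 13, against 5.54 to 17.6 in subclone 2, and in liver it was 3.22 to 5.54, against 8.71 to 44.7. In the retransplantation it was 7.76 to 19.2 in lung, against 31.9 to 37.3 in liver. HLA-DRA over CIITA, per kilobase, was 14.8 to 38.8 in subclone 13 tumours, against 2.48 to 8.78 in subclone 2 tumours, and 4.80 to 5.90 in retransplanted lung, against 0.929 to 1.63 in retransplanted liver. Within subclone 13, HLA-DPA1 over HLA-DPB1 stayed at 2.10 to 2.24 in tumours, 1.94 to 3.27 in lung and 2.30 to 3.22 in liver. These ratios were not tested.

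The genes of the set moved together within subclone 13. Over its 9 samples, which share 3 mice and 3 organs, Pearson's r of log2(CPM + 1) was 0.995 between HLA-DRA and HLA-DPA1, 0.984 between HLA-DRA and HLA-DRB1, and 0.895 between HLA-DRA and CD74. CIITA followed less closely, with r of 0.750 with HLA-DRA, 0.556 with CD74 and 0.919 with HLA-DMB. The 36 pairs without HLA-DQA1 had a median r of 0.902 (range 0.556 to 0.995) in subclone 13. In subclone 2 the 36 pairs had a median r of 0.677 (range -0.176 to 0.958). There CIITA had r of 0.641 with HLA-DRA and -0.176 with CD74. Over all 18 samples the subclones form separate clusters, so pooled values mostly restate the difference between them.

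**Figure D5:**
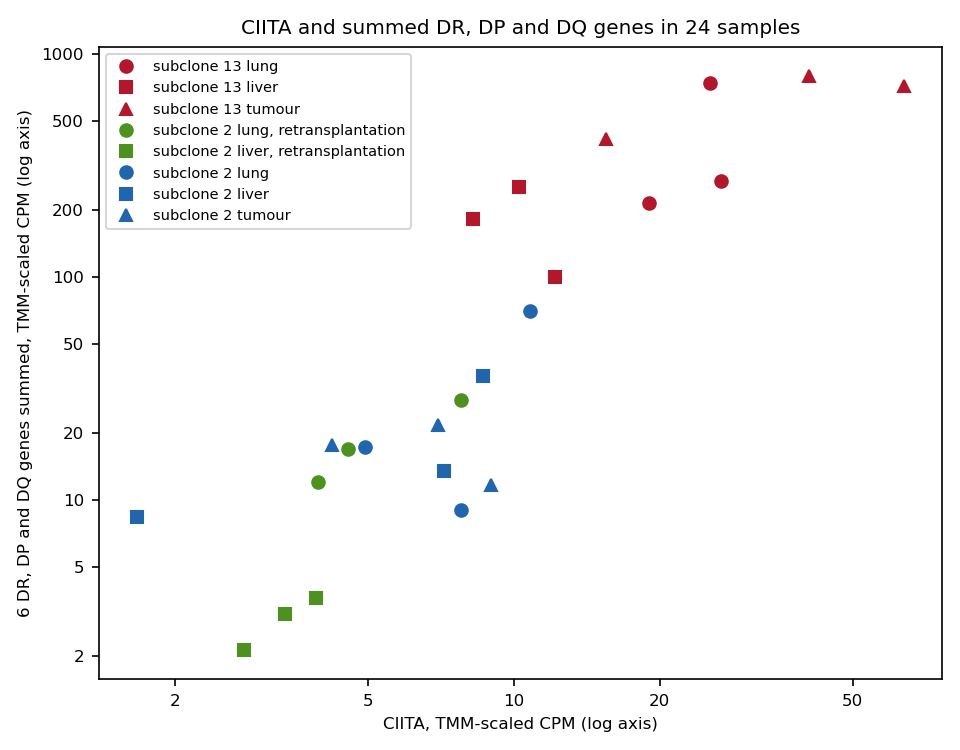
Summed level of the 6 DR, DP and DQ genes against CIITA in the 24 samples, both as TMM-scaled CPM on log axes, with the 2 experiments scaled separately. Colours give the subclone and experiment, and circles, squares and triangles lung, liver and tumour. Subclone 13 samples lie at 99.5 to 795 CPM of chain genes, against 8.40 to 70.5 CPM for subclone 2 in the first experiment.

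The genes whose pattern over the 18 samples was most like that of HLA-DRA, among 11016 named genes with a mean of at least 5 CPM outside the set, were HLA-DRB5 (r = 0.984), CYGB (0.934), NGFR (0.934), LZTS1 (0.927) and SPARC (0.917). For CD74 they were HLA-DRB5 (0.957), LZTS1 (0.926), C2 (0.894), CYGB (0.893) and GJB2 (0.882). All of these were higher on average in subclone 13: SPARC had a mean of 452 CPM in subclone 13 and 18.9 CPM in subclone 2, and NGFR 36.2 CPM in subclone 13 and 0.904 CPM in subclone 2. When the members themselves were ranked with these genes, HLA-DPA1, HLA-DRB1, HLA-DPB1, HLA-DMB, HLA-DMA and CD74 took ranks 1, 3, 4, 5, 6 and 7 in likeness to HLA-DRA. CIITA came at rank 20 (r = 0.854).

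Other genes of the class II region were mixed. Of 9 further genes listed, 5 passed the filter, and HLA-DRB5 and HLA-DOA were called higher in subclone 13 tumours, against 0.103% of all genes called higher. HLA-DOA and HLA-DRB6, at 7 counts or less in each subclone 2 group of the first experiment, passed it only through subclone 13. Their calls below are therefore no support for a difference. HLA-DOB, named after its values were seen, encodes the other chain of HLA-DO and ran the other way at few counts, with 16 counts in the 3 subclone 13 tumours and 25 in those of subclone 2 (log2 fold change -0.51 ± 1.44). HLA-DRB5, a second DR beta gene, had 25.8, 41.3 and 50.2 CPM in subclone 13 tumours, against 0.68, 0.57 and 1.15 CPM in subclone 2 tumours (log2 fold change 5.55 ± 0.95, edgeR adjusted p = 0.0256). HLA-DOA encodes a chain of HLA-DO, which restrains HLA-DM. Its level was 8.35, 12.9 and 11.5 CPM in subclone 13 tumours, against 1 count in the 3 subclone 2 tumours (edgeR adjusted p = 0.0242). In lung, HLA-DOA had 12.6, 0.31 and 2.74 CPM in subclone 13 and 0 counts in subclone 2, at least 136-fold higher against a floor of 3 counts over the group (edgeR adjusted p = 0.0220). In subclone 13 liver metastases HLA-DOA had 0.41, 0.48 and 0.33 CPM, against 8.35, 12.9 and 11.5 CPM in tumours, and was called lower with a mouse term (log2 fold change -4.91 ± 0.98, adjusted p = 0.0125). HLA-DRB6, a DR pseudogene, had 1.98, 1.33 and 0.66 CPM in liver of subclone 13 and 0 counts in liver of subclone 2, at least 67.7-fold higher (edgeR adjusted p = 0.0338). With a mouse term HLA-DRB5 was called higher in subclone 13 in lung (log2 fold change 4.26 ± 0.72, adjusted p = 0.00484) and in liver (3.72 ± 0.71, adjusted p = 0.00973), and HLA-DRB6 in tumours (5.98 ± 1.12, adjusted p = 0.0185) and in lung (4.96 ± 1.08, adjusted p = 0.0275). HLA-DRB9 and HLA-DQA2 had 0 counts in subclone 2 of the first experiment, and did not exceed 0.102 CPM and 0.155 CPM in any subclone 13 sample.

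For the proteins that CIITA docks on, 0 of 7 genes of the promoter complex were called between subclones 13 and 2 in tumours by edgeR, with or without a mouse term, where 0.109% of all genes were called and a count of 0 tells little. An unadjusted p under 0.05 was found for 1 of the 7, against 4.36% of all genes, and their median log2 fold change was -0.06, against 0.02 over all genes. RFX5, which binds the X box, had 43.1, 54.8 and 46.8 CPM in subclone 13 tumours, against 44.0, 34.7 and 35.5 CPM in subclone 2 tumours (log2 fold change 0.34 ± 0.24). RFXAP and RFXANK, its partners, had log2 fold changes of 0.50 ± 0.46 and -0.24 ± 0.28, and NFYA, which binds the Y box, one of -0.28 ± 0.22.

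Along the route from interferon gamma to CIITA, 0 of 10 genes were called in tumours, against 0.109% of all genes, 1 had an unadjusted p under 0.05, against 4.36% of all genes, and the median log2 fold change was 0.27. The receptor chains IFNGR1 and IFNGR2 had log2 fold changes of -0.06 ± 0.21 and 0.26 ± 0.21, and the kinases JAK1 and JAK2 0.20 ± 0.27 and 0.27 ± 0.35. IRF1, a transcription factor on this route, stands outside the naming rule and was added after its value was seen, with a log2 fold change of 0.54 ± 0.47. Between organs, IFNGR2 was called lower with a mouse term in subclone 13 lung (log2 fold change -0.77 ± 0.19, adjusted p = 0.0320) and liver (-0.86 ± 0.19, adjusted p = 0.0219) than in tumours. JAK1 was called lower with a mouse term in lung than in tumours of subclone 13 (-0.87 ± 0.18, adjusted p = 0.0126) and of subclone 2 (-0.79 ± 0.18, adjusted p = 0.0214).

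Among genes for the remaining steps of presentation, none of 7 tested genes of peptide processing, 5 of class II protein turnover, 3 ligand and partner genes of CD74, 11 of class I presentation and 5 of T cell costimulation was called between the subclones in tumours by edgeR, where 0.109% of all genes were called. The counts with an unadjusted p under 0.05 were 1, 1, 0, 5 and 0, against 4.36% of all genes. CTSS, the cathepsin that trims the invariant chain in many antigen presenting cells, had a log2 fold change of 0.98 ± 0.41, CTSL one of 0.25 ± 0.23, and CTSB and CTSD 0.57 ± 0.28 and 0.30 ± 0.35. The ubiquitin ligase genes MARCHF1 and MARCHF8, whose products remove class II from the surface, had log2 fold changes of -0.42 ± 1.10 and -0.26 ± 0.28. The tetraspanin genes CD9 and CD63 had 0.34 ± 0.25 and 0.36 ± 0.24. MIF, a ligand of CD74, had -1.47 ± 0.99, CD44, which pairs with CD74 at the surface, 0.19 ± 0.38, and CXCR4, a further partner, 1.97 ± 1.09. NLRC5, the class I counterpart of CIITA, had a log2 fold change of 0.24 ± 0.38, B2M 0.58 ± 0.25 and HLA-B 0.97 ± 0.37. In liver, HLA-B (log2 fold change 1.51 ± 0.31, adjusted p = 0.0171) was called higher in subclone 13 with a mouse term. CD44 was called lower than in tumours with a mouse term in subclone 13 liver (-1.52 ± 0.24, adjusted p = 0.00119), subclone 13 lung (-1.08 ± 0.23, adjusted p = 0.0148) and subclone 2 lung (-0.90 ± 0.23, adjusted p = 0.0393). CTSB was called lower with a mouse term in subclone 13 lung than in tumours (-0.96 ± 0.20, adjusted p = 0.0119) and in subclone 2 lung than in liver (-0.88 ± 0.20, adjusted p = 0.0239). CD9 was called higher in subclone 2 lung than in tumours (0.78 ± 0.20, adjusted p = 0.0421) and LGALS9, a galectin gene, higher in subclone 2 lung than in liver (2.34 ± 0.60, adjusted p = 0.0397), both with a mouse term. CD274, which encodes PD-L1, was called lower in subclone 13 liver than in tumours as well (-0.97 ± 0.20, adjusted p = 0.0133). The costimulators CD40 and CD274 had log2 fold changes of -0.17 ± 0.43 and 0.01 ± 0.29 between the subclones in tumours. CD80 and CD86, the costimulators that a naive CD4+ T cell reads beside class II, did not pass the filter on low counts in either experiment.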

How the data were processed

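RNA-seq was made from barcoded MDA-MB-231 subclones recovered from mice. Per the labels' protocols, RNA was extracted with a column kit with on-column DNase treatment and an Illumina TruSeq RNA kit (v2), which does not mark strand, served for the libraries. The submitters' processing notes name bcl2fastq 2.15.0.4, cutadapt, STAR, featureCounts and GRCh38, with no role or order. The authors deposited unnormalized counts per gene, 1 table per experiment, as whole numbers. Treatment of reads with several matches is not given in the sources used here, which bears on HLA-DRB1 and the related HLA-DRB5 and HLA-DRB6.

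The 9 libraries of subclone 13 of mouse 1 were summed per organ, which gave 24 samples of 6 mice with 11807225 to 82218315 counts. All samples labelled with 1 mouse number come from that animal. Deviations from the group means correlated with a median r of 0.359 in 45 pairs of the same mouse (lowest 0.152), against -0.249 in 90 pairs of different mice, so values with mouse as a term are given beside a result where they change a call. P-values rest on 3 mice a group.

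Genes were filtered with filterByExpr, and edgeR 4.0.16 (R 4.3.3) gave quasi-likelihood F tests, with all 6 groups of the first experiment in 1 model, the retransplantation alone, and both together for the difference between them. P-values were adjusted by the Benjamini-Hochberg method over 17418, 17549 and 19721 genes, and an adjusted p under 0.05 was called. Scripts were tested on simulated data. Alternatives were DESeq2 1.42.0, RLE scaling, no filter, mouse as a term, only the groups compared, single libraries in place of the sum, and leaving out samples or mice. Levels are TMM-scaled CPM, per kilobase of the median protein-coding transcript of GENCODE v29 where genes are compared. Correlations used log2(CPM + 1). Members of the fixed lists are named where they passed the test, with or without a mouse term, or are among the first 4 of their list. The members and lists were chosen with earlier results of these data known. Some members of the lists were counted with their list and are not reported here by name.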

Additional observations from a re-analysis of the deposited data

How the results depend on the processing

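The direction of no fold change of the class II genes that had passed the test was reversed under any alternative run; the values below are numbers of class II genes called of those tested, and the cause of each change was not tested. With mouse as a replicate block, which pairs the samples of an animal, the count was 1 for liver against tumour in subclone 13, 7 and 6 for subclone 13 against 2 in lung and in liver, and 2 for lung against liver in the retransplantation; the block changed no other count by over 1.5 times. With no filter on low counts, 3 were called in lung against tumour and 2 in lung against liver of subclone 2, 6 in liver against tumour and 4 in lung against liver of subclone 13, and 9 and 7 for subclone 13 against 2 in lung and in liver. That setting also called 1 gene for the difference between subclones in lung against tumour, 2 for that in liver against tumour, and 7 in the retransplantation. DESeq2 called 2 in liver against tumour of subclone 13, 6 and 4 for subclone 13 against 2 in lung and in liver, and 6 in the retransplantation. With only the groups compared in the model, 0 were called for subclone 13 against 2 in lung. RLE scaling changed no count. Leaving out 1 sample or mouse gave 0 to 7 for subclone 13 against 2 in tumours, 0 to 3 in lung and 0 to 1 in liver, and 0 to 1 for liver against tumour in subclone 13. With the replicate block and 1 mouse left out, chosen after seeing the data, these counts were 4 to 9, 0 to 6, 0 to 4 and 0 to 5, and 2 to 2 in the retransplantation. Over all genes, subclone 13 against 2 in tumours gave 19 calls, 84 with DESeq2, 88 with the block and 118 with no filter; the same order gave 32, 220, 269 and 221 in lung, 43, 267, 262 and 253 in liver, 67, 245, 318 and 298 for liver against tumour in subclone 13, and 0, 403, 84 and 718 in the retransplantation. Genes at a few counts, HLA-DQA1 and HLA-DQB1 above all, are limited by depth: the mean HLA-DQA1 level in subclone 13 liver was 0.408 CPM with library 1 in place of the sum.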
